A study of Mus musculus with 4 samples.

Results

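Nes, Vim, Gfap, Des and Synm, which encode nestin, vimentin, GFAP, desmin and synemin, are 5 of the 31557 gene symbols counted in cells sorted from the mouse dentate gyrus. These rows were taken by name and followed across cell classes and between treatments in the 716 of 768 wells that had 500 to 6000 detected genes. The cells came from 8 male nestin-GFP mice, in which regulatory DNA of Nes drives a green fluorescent reporter, and GFP-positive cells of the whole dentate gyrus of each mouse were sorted into 96 wells. In 4 mice an antagomir of miR-132, an oligonucleotide of locked nucleic acids carrying cholesterol, had been injected into the cerebral ventricle (2 µl at 0.33 nmol/ml). The other 4 mice had received a scrambled locked nucleic acid oligonucleotide in artificial cerebrospinal fluid, at a dose that the labels do not give. All mice were injected at 2 months of age and analysed at 3 months. The antagomir mice are numbered 2, 4, 6 and 8 and the scrambled mice 1, 3, 5 and 7, and the mouse was the replicate throughout. Because the reporter chose the cells, the Nes values describe GFP-positive cells and not the dentate gyrus as a whole.

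Intermediate filaments are rope-like polymers that give a cell mechanical strength and hold organelles in place. Vimentin, desmin and GFAP can each form filaments of their own, whereas nestin and synemin are long proteins that join filaments built by such partners. In the adult dentate gyrus nestin marks the radial glia-like stem cells that give rise to new neurons, GFAP marks these stem cells and astrocytes, and desmin marks the contractile mural cells of vessels, which are pericytes and smooth muscle. Vimentin is typical of endothelial and mesenchymal cells and of immature or reactive glia, and synemin links filaments to adhesion sites in muscle.

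In the GENCODE M21 annotation of GRCm38, Nes lies at chr3:87971078-87980451 on the plus strand, Vim at chr2:13573927-13582826 on the plus strand and Gfap at chr11:102887336-102900912 on the minus strand. Des lies at chr1:75360329-75368579 on the plus strand and Synm at chr7:67730160-67759742 on the minus strand. Synm is overlapped on the opposite strand by Ttc23 and Gm45102, Gfap by Gm26668 and Des by Gm15179, and no source used here gives the strand setting of the counting. If strand was ignored, reads of such partners cannot be told apart. Ttc23 had counts in 3 of 302 oligodendrocyte-like cells and in 5 of 87 endothelial-like cells (a mean of 17.7 CPM in antagomir and 3.62 CPM in scrambled mice), the classes in which Synm was high. Gm26668 had counts in 2 of 203 radial glia-like or astrocyte-like cells and Gm15179 in 1 of 82 mural-like cells, where Gfap and Des were high.

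The antagomir targets miR-132. Its mature sequence is shown with the seed (bases 2 to 8) in capitals, since pairing of the seed with a 3' UTR is the usual mark of a microRNA target; it is from RefSeq for GRCm38.p6, at chr11:75173723-75173744 on the plus strand.
mmu-miR-132-3p: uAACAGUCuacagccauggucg
The 7 bases that pair with this seed (GACTGTT) were looked for in 3' UTRs of GENCODE M21, taking the longest that each gene has. They were absent from the 3' UTRs of Nes (421 bases), Vim (342 bases), Gfap (1341 bases) and Des (1529 bases), and present at 2 places in that of Synm (3276 bases). Among genes with a 3' UTR within 20% of the length of Synm's, 21.4% held at least 1 such match. A match of the last 6 of these bases (ACTGTT) stands at a further place in Synm, and 70.3% of genes of like length held 1. A match is a description of the letters and not a tested site. The windows of 26 bases around the 3 places are given on the transcribed strand with the matching bases in capitals, and each is named by the base of the 3' UTR at which its match starts. They lie in the 3' UTR on chromosome 7 of GRCm38, at chr7:67732884-67732909, chr7:67730414-67730439 and chr7:67730212-67730237.
Synm, match at base 548: atctatctgttctACTGTTtatctat
Synm, match at base 3017: cccagcccggaaGACTGTTgtcagca
Synm, match at base 3219: caaggagtgggtGACTGTTcgtctgt

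The promoters of Nes, whose reporter chose the cells, and of Vim, the member whose level over the classes was most like that of Nes (r = 0.51), are shown for comparison. RefSeq's windows for GRCm38.p6 run from 250 bases before the start of transcription to 50 bases after it, and capitals mark the motifs found on either strand. The 5 motifs searched, on both strands, were the core of the TATA box (TATAA), the CCAAT box (CCAAT), the GC box (GGGCGG), the E-box CAGCTG and the CArG box, which serum response factor binds.
Nes, chr3:87970843-87971142, plus strand: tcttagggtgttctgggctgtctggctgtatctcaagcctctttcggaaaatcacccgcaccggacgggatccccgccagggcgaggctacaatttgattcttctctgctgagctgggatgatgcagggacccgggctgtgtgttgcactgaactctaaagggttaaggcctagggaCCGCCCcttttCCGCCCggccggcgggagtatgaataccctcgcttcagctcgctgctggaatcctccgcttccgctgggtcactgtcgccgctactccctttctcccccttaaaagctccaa
Vim, chr2:13574061-13574360, plus strand: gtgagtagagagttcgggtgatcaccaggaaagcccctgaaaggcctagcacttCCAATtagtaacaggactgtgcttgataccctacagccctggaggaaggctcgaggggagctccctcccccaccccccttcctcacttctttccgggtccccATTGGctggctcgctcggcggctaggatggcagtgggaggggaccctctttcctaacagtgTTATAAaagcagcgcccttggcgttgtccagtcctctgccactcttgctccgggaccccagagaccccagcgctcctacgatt
In these windows the GC box stood at 2 places in Nes, and at 2 places in Des, and it occurred in 35.7% of all 32851 promoter windows. The Vim window held the CCAAT box at 2 places and the TATA box core at 2 overlapping places, motifs held by 37.4% and 24.9% of all windows. The E-box stood at 1 place in Des and the CCAAT box at 1 place in Synm, and none of the 5 motifs was found in the Gfap window. The CArG box, held by 1.63% of all windows, was found in none of the 5.

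Kept wells had a median of 650777 counts and 2778.5 detected genes, and the counts summed per mouse ranged from 43996495 to 69191485. Counts are reads, since Smart-seq2 tags no molecules, and Wilson intervals cover counting error only. Cells were clustered without any intermediate filament gene and named from markers of other kinds. This gave 203 cells like radial glia (RGL) or astrocytes, called RGL or astrocyte-like, 82 mural-like, 87 endothelial-like and 302 oligodendrocyte-like cells, the 4 classes with at least 3 cells in every mouse. Neuroblast-like (25 cells), fibroblast-like (12) and oligodendrocyte precursor-like cells (5) are given by their values. Of each class's own markers, 17 of 18 were detected in at least 25% of RGL or astrocyte-like cells, 10 of 12 in mural-like, 12 of 12 in endothelial-like and 12 of 12 in oligodendrocyte-like cells. In 9 cells (6 RGL or astrocyte-like and 3 oligodendrocyte-like) fewer than 3 of these markers reached 10 counts, and results that rest on them are given with and without them. The median depth was 554118 counts in RGL or astrocyte-like, 530922.5 in mural-like, 565180 in endothelial-like and 829783.5 in oligodendrocyte-like cells.

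Nes had counts in 471 of the 716 GFP-positive cells (65.8%, Wilson 95% interval 62.2% to 69.2%) and was the most widely detected of the 5 genes. Vim had counts in 168 cells (23.5%), Gfap in 166 (23.2%), Synm in 124 (17.3%) and Des in 74 (10.3%). Detection of Des rested largely on single counts: 43 of the 74 cells (58.1%) held 1 count, against 10 of 471 cells for Nes and 6 of 124 for Synm. At least 1 of the 5 genes was counted in all but 103 cells. A cell held 1 of them in 317 cases, 2 in 212, 3 in 74 and 4 in 10, and 0 cells held all 5.

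Levels are given as CPM, a count scaled to a common library total, from the counts summed over the cells of a class in each mouse, and the plots of shares and of levels by class show the 8 mice. Pairs of classes were compared on log2(CPM + 1) by exact sign-flip tests over the 8 mice, adjusted over all genes tested, and a pair passed at an adjusted p under 0.05.

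**Figure D1:**
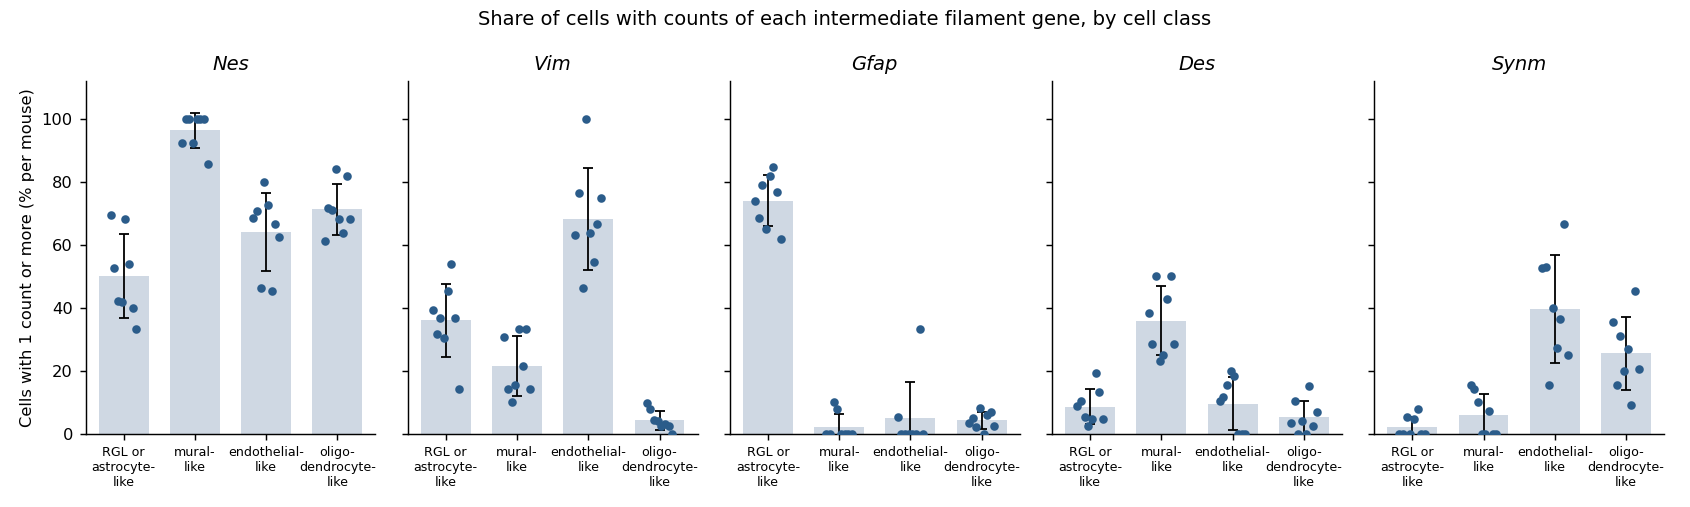
Share of cells with at least 1 count of each intermediate filament gene (% of the cells of a class in a mouse) in RGL or astrocyte-like, mural-like, endothelial-like and oligodendrocyte-like cells. Points are the 8 mice, bars the means and error bars the SD; Nes has the highest mean share in mural-like cells (96.3%), Gfap in RGL or astrocyte-like cells (73.9%) and Vim in endothelial-like cells (68.2%).

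**Figure D2:**
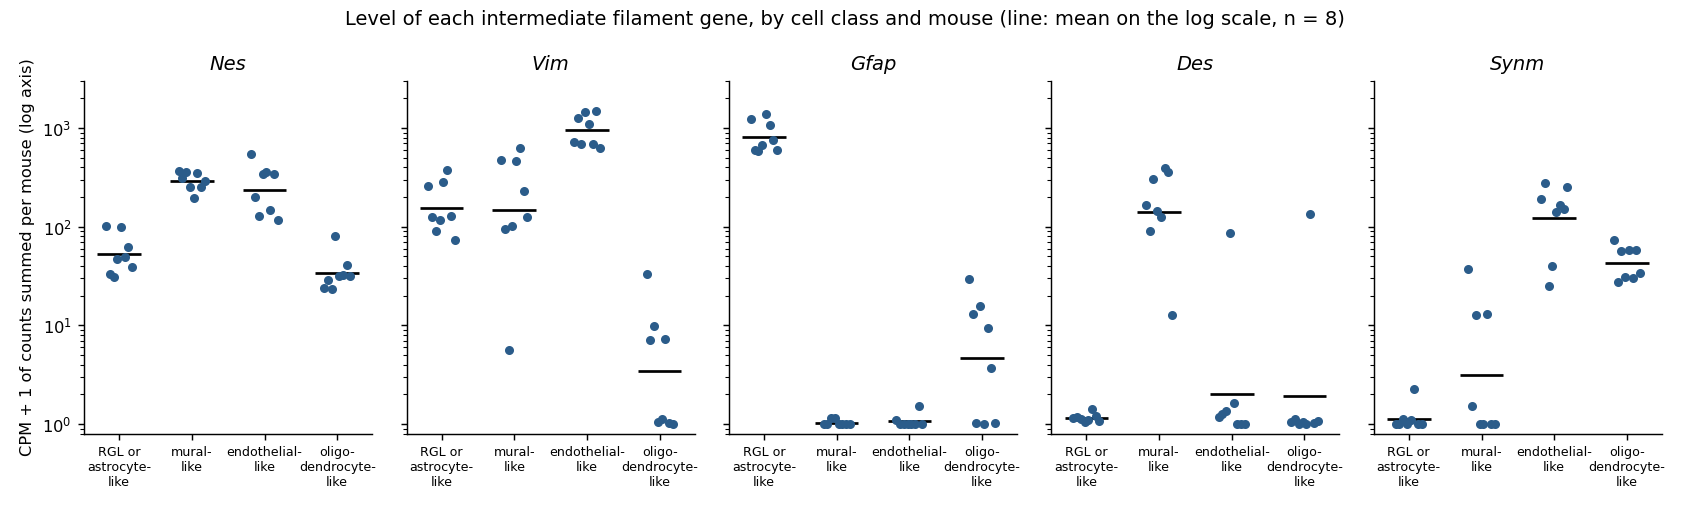
Level of each intermediate filament gene (CPM + 1 of the counts summed per mouse, log axis) in the same 4 classes. Points are the 8 mice and lines the means on the log scale; Gfap is near 0 in both vascular classes, Des is high in mural-like cells with a lone point each in endothelial-like and oligodendrocyte-like cells, and Synm is high in endothelial-like and oligodendrocyte-like cells.

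Nes, the gene of the reporter, had higher class means in the 2 vascular classes than in the RGL or astrocyte-like class. The latter pools clusters that differed in Nes. Within that class Nes was at 187 ± 87.6 CPM in cluster 7 and at 14.1 ± 10.05 CPM in cluster 6 (SD, 8 mice), both described below. Among RGL or astrocyte-like cells it ran from 29.6 CPM in the lowest mouse over a median of 47.2 to 100.4 in the highest. In mural-like cells it ran from 195 over 301 to 368 CPM, and every mouse lay above every RGL or astrocyte-like value. In endothelial-like cells it ran from 117 over 271 to 548 CPM, and in oligodendrocyte-like cells from 22.4 over 30.8 to 80.0 CPM. The means were 56.9 ± 28.3 CPM in RGL or astrocyte-like, 297 ± 61.2 in mural-like, 273 ± 151 in endothelial-like and 35.8 ± 18.7 in oligodendrocyte-like cells (SD, n = 8 mice each). Nes was lower in RGL or astrocyte-like than in mural-like cells in 8 of 8 mice, by a mean log2 difference of -2.47 ± 0.84 (SD over mice; exact sign-flip p = 0.00781, the smallest that 8 mice allow; adjusted p = 0.0415), a comparison in which 18.8% of 7270 genes passed. It was lower than in endothelial-like cells too (-2.18 ± 0.48, exact adjusted p = 0.0350, 8 of 8 mice, in a comparison in which 22.3% of genes passed). Against oligodendrocyte-like cells, Nes was higher in mural-like cells by 3.10 ± 0.78 (exact adjusted p = 0.0390, with 20.1% of genes called) and in endothelial-like cells by 2.81 ± 0.87 on the log2 scale (adjusted p = 0.0347, with 22.5% called). That endothelial-like difference was 0.92 by the mean over cells of log2 values, and the call was lost (exact adjusted p = 0.0909). Its share of positive cells, 64.1% ± 12.3 in endothelial-like cells, was below the 71.3% ± 8.02 in oligodendrocyte-like cells (untested). The calls of endothelial-like cells rest on 8 mice: among wells with 1000 to 6000 genes 7 mice had at least 3 such cells, and the difference from oligodendrocyte-like cells (2.91, exact adjusted p = 0.0574) and that from RGL or astrocyte-like cells (-2.13, adjusted p = 0.0603) no longer passed. Mural-like and endothelial-like cells could not be ordered (log2 difference 0.29, exact sign-flip p = 0.414).

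The order of RGL or astrocyte-like and oligodendrocyte-like cells in Nes turned on few cells. Over all cells the log2 difference was 0.63 ± 0.88, higher in 7 of 8 mice, and did not pass (exact p = 0.0781, adjusted p = 0.147). In the mouse that went the other way, mouse 4, 1 oligodendrocyte-like cell held 750 Nes counts with 0 of 12 oligodendrocyte markers and 4 of 12 mural markers at 10 counts. Without the 9 cells that lacked markers of their class, the level was 56.6 ± 29.0 CPM in RGL or astrocyte-like and 31.1 ± 7.85 CPM in oligodendrocyte-like cells. The difference was then 0.73 with an exact adjusted p of 0.0239, higher in 8 of 8 mice. Without cluster 7, the RGL or astrocyte-like cluster with counts of Nes in 100% of its cells, it was -0.56 (exact adjusted p = 0.156). By share of cells with a count, Nes was detected in 50.2% ± 13.3 of RGL or astrocyte-like and 71.3% ± 8.02 of oligodendrocyte-like cells. After thinning each cell to 200000 counts these shares were 50.5% in RGL or astrocyte-like and 69.1% in oligodendrocyte-like cells.

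In the smaller classes Nes had counts in 11 of 25 neuroblast-like cells, 6 of 12 fibroblast-like cells and 5 of 5 oligodendrocyte precursor-like cells. In the 5 mice with at least 3 neuroblast-like cells its level ran from 0 to 87.3 CPM, with a median of 42.2 CPM.

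Vim, the filament that nestin usually joins, had its highest mean of the 4 classes in endothelial-like cells. In RGL or astrocyte-like cells it ran from 71.7 over a median of 126 to 375 CPM, and in mural-like cells from 4.65 over 177 to 629. In endothelial-like cells it ran from 625.1 over 906 to 1485 CPM, with a mean of 1004 ± 367, and in oligodendrocyte-like cells from 0 over 3.11 to 32.4. Every endothelial-like value exceeded the values of the RGL or astrocyte-like and oligodendrocyte-like cells, and the mural-like values overlapped with those of RGL or astrocyte-like cells. Vim was lower in RGL or astrocyte-like than in endothelial-like cells by -2.61 ± 1.04 on the log2 scale (exact adjusted p = 0.0350, 8 of 8 mice). It was higher in RGL or astrocyte-like than in oligodendrocyte-like cells by 5.49 ± 1.86 (exact adjusted p = 0.0242, 8 of 8 mice), where 38.2% of genes passed, and higher in endothelial-like than in oligodendrocyte-like cells by 8.09 ± 2.27 (adjusted p = 0.0347). Mural-like cells exceeded oligodendrocyte-like cells in 7 of 8 mice by 5.41 ± 3.06, which did not pass (exact adjusted p = 0.0588). RGL or astrocyte-like and mural-like cells did not differ beyond their spread (0.08 ± 1.66, exact sign-flip p = 0.977). The mural-like level was spread unevenly over few cells: 18 of 82 cells held counts of Vim, with a median of 487 counts among them. In the smooth muscle cluster 11, described below, 7 of 8 cells held Vim, at 2343 CPM over its pooled cells. The pericyte cluster 5 had Vim in 11 of 74 cells, at a pooled 120 CPM. The pooled level of endothelial-like cells was 964 CPM, and these cluster levels were not tested.

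Gfap was high in the glial class that it is used to mark and close to 0 in the others. It had counts in 149 of 203 RGL or astrocyte-like cells, 2 of 82 mural-like, 2 of 87 endothelial-like and 12 of 302 oligodendrocyte-like cells, and the 4 vascular cells held 1 count each. In RGL or astrocyte-like cells it ran from 587 over a median of 714 to 1401 CPM, with a mean of 866 ± 327, whereas in oligodendrocyte-like cells it ran from 0 over 5.55 to 28.5 CPM. The log2 differences of RGL or astrocyte-like cells were 9.62 ± 0.57 from mural-like, 9.58 ± 0.56 from endothelial-like and 7.45 ± 1.98 from oligodendrocyte-like cells, with exact adjusted p-values of 0.0415, 0.0350 and 0.0242 and the same direction in 8 of 8 mice. The share of Gfap-positive cells was 73.9% ± 8.12 over the mice.

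Des was a mural gene, and its few counts elsewhere came mainly from 2 cells. Its level in RGL or astrocyte-like cells never exceeded 0.426 CPM, and each of the 17 positive cells held 1 count. It had counts in 29 of 82 mural-like cells (35.8% ± 10.98 per mouse), of which 22 held at least 10 counts. The level in mural-like cells ran from 11.8 over a median of 155 to 392 CPM, with a mean of 198 ± 136. The log2 difference of RGL or astrocyte-like from mural-like cells was -6.93 ± 1.52 (exact adjusted p = 0.0415, 8 of 8 mice). Mural-like cells exceeded oligodendrocyte-like cells by 6.20 ± 2.40 (exact adjusted p = 0.0390, 8 of 8 mice). The oligodendrocyte-like mean of 16.6 ± 46.9 CPM rested on 1 cell of antagomir mouse 6 with 2340 counts of Des, which held 522 detected genes, 0 of 12 oligodendrocyte markers and 2 of 12 mural markers at 10 counts. Without the 9 cells that lacked markers of their class the oligodendrocyte-like mean was 0.0617 ± 0.0803 CPM and the difference 7.05 (exact adjusted p = 0.0386). The other cell was an endothelial-like cell of antagomir mouse 4 with 336 counts and 11 of 12 endothelial markers.

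Synm, whose product bridges filaments and adhesion sites, was highest in endothelial-like cells and was also present in oligodendrocyte-like cells. Counts of Synm were held by 4 of 203 RGL or astrocyte-like cells (mean 0.185 ± 0.444 CPM), by 5 of 82 mural-like cells (7.60 ± 12.8 CPM) and by 0 of 25 neuroblast-like cells, which allows a share of up to 12%. It ran from 23.98 over a median of 159 to 279 CPM in endothelial-like cells (mean 155 ± 90.6) and from 26.7 over 44.5 to 71.8 CPM in oligodendrocyte-like cells (mean 45.2 ± 17.4). It had counts in 34 of 87 endothelial-like and 79 of 302 oligodendrocyte-like cells, and 74 of those 79 held at least 10 counts. Synm was lower in RGL or astrocyte-like than in endothelial-like cells by -6.74 ± 1.31 (exact adjusted p = 0.0350) and than in oligodendrocyte-like cells by -5.26 ± 0.79 on the log2 scale (adjusted p = 0.0242), in 8 of 8 mice each. It was lower in mural-like than in oligodendrocyte-like cells by -3.79 ± 2.04 (exact adjusted p = 0.0390, 8 of 8 mice). Endothelial-like cells exceeded oligodendrocyte-like cells by 1.49 ± 1.46 in 7 of 8 mice, which did not pass adjustment (exact p = 0.0234, adjusted p = 0.0689).

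Between the vascular classes, mural-like minus endothelial-like, Vim (-2.68 ± 2.20), Des (6.12 ± 2.68) and Synm (-5.27 ± 2.66) each had the same direction in 8 of 8 mice. None passed (exact sign-flip p = 0.00781 each, adjusted p = 0.0741). That p is the smallest that 8 mice allow. Too few of the 6885 genes reached it for any to pass adjustment in that comparison, and 0 did (0.0%). Over the 6 pairs of classes Nes passed in 4, Vim, Gfap and Synm in 3 each and Des in 2; a member below 20 CPM in both classes was not tested.

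Divided by the exon length of each gene, the levels can be compared between members. Per kilobase, Vim reached 212 ± 77.3 CPM in endothelial-like cells and Gfap 205 ± 77.6 CPM in RGL or astrocyte-like cells. Des (52.8 ± 36.1) and Nes (46.3 ± 9.54) had like means per kilobase in mural-like cells, with Vim at 55.9 ± 47.8. Nes stood, in RGL or astrocyte-like cells, at 8.87 ± 4.41 CPM per kilobase, below Vim at 38.1 ± 23.2 and Gfap at 205. In oligodendrocyte-like cells Nes (5.59 ± 2.91) and Synm (5.70 ± 2.19) had like means and the means of Vim, Gfap and Des were 1.42, 1.98 and 4.43, the last from 1 cell as described.

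The genes were met in different company in the different classes. Among RGL or astrocyte-like cells 72 of 203 (35.5%) held Nes with Gfap, 42 (20.7%) Nes with Vim and 35 (17.2%) all of Nes, Vim and Gfap, while 47 held Gfap alone. Among mural-like cells 28 of 82 (34.1%) held Nes with Des and 41 held Nes alone. Among endothelial-like cells 39 of 87 (44.8%) held Nes with Vim and 25 (28.7%) Vim with Synm. Among oligodendrocyte-like cells 134 of 302 (44.4%) held Nes alone and 60 (19.9%) Nes with Synm, so that in this class Nes mostly occurred without counts of a filament that forms polymers by itself. The plot of the number of members per cell shows 2 or more in 62.1% of endothelial-like and 54.7% of RGL or astrocyte-like cells, and in 47.6% of mural-like and 27.5% of oligodendrocyte-like cells.

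**Figure D3:**
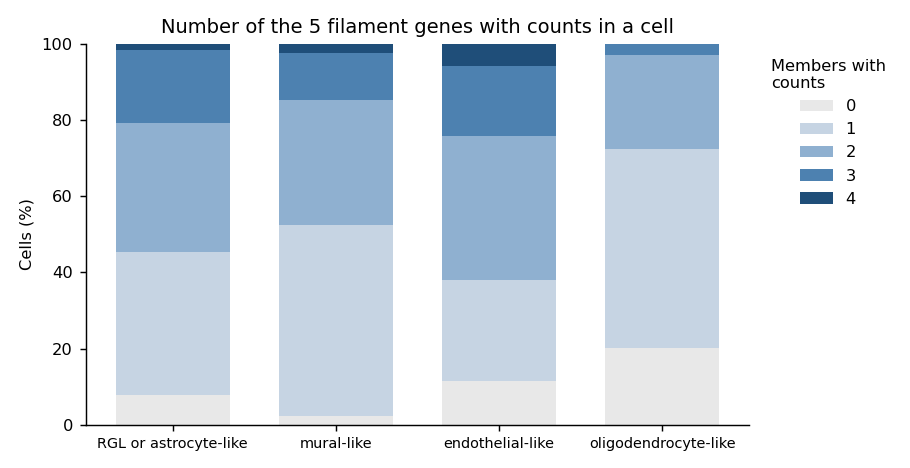
Share of cells (%) of each of the 4 largest classes with counts of 0 to 4 of the 5 intermediate filament genes, stacked from 0 (light) to 4 (dark). Of these 4 classes, oligodendrocyte-like cells have the largest share with 0 (20.2%) and endothelial-like cells the largest with 4 (5.75%).

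Within a class, detection of Nes went with no other member beyond the spread between mice. After thinning to 200000 counts, Vim was detected in 41.0% ± 18.04 of RGL or astrocyte-like cells with Nes and in 27.0% ± 18.03 of those without (8 mice, exact sign-flip p = 0.203, adjusted p = 0.535). For Gfap the shares were 75.6% ± 12.6 with Nes and 78.4% ± 13.6 without (exact p = 0.688). For Des they were 2.03% ± 3.89 with Nes and 8.93% ± 6.84 without (exact p = 0.0625), from 2 and 7 cells. In oligodendrocyte-like cells Synm was detected in 25.5% ± 8.43 of cells with Nes and in 24.9% ± 18.6 of those without (exact p = 0.883). After adjustment 0 of 10388 genes in RGL or astrocyte-like and 0 of 9047 in oligodendrocyte-like cells passed (0.0% each). At an unadjusted p under 0.05, 13.3% and 4.93% did.

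The RGL or astrocyte-like class held 4 clusters, and Nes separated 1 of them from the others although it had been left out of the clustering. Cluster 7 (34 cells) was led by Frzb, a secreted Wnt antagonist, Ccnd2, a cyclin of cycling progenitors, and Tnc, a matrix protein of stem cell niches. Of its cells 20.6% held counts of the neuroblast gene Dcx and 17.6% of the proliferation gene Mki67, and both had counts in 0 of the 169 other cells of the class. The stem cell genes Hopx, Sox2 and Id4 did not set it apart: Hopx had counts in 58.8% of cluster 7 against 52.9%, 46.7% and 37.8% of clusters 6, 8 and 4, Sox2 in 29.4% against 29.9%, 37.8% and 5.41%, and Id4 in 44.1% against 56.3%, 62.2% and 29.7%. The class name of this cluster depended on the clustering. The cluster was enriched in 7 RGL or astrocyte markers and 4 neuroblast markers, and at Leiden resolution 0.6 all 34 cells fell among 64 neuroblast-like cells, which left 168 RGL or astrocyte-like cells. Nes had counts in 34 of 34 cells (Wilson 95% interval 89.8% to 100%) at 187 ± 87.6 CPM (SD, 8 mice with at least 2 cells). In cluster 6 (87 cells, led by F3 and Btbd17) it had counts in 37.9% of cells at 14.1 ± 10.05 CPM, in cluster 8 (45 cells) in 40.0% and in cluster 4 (37 cells, with a median of 881 detected genes) in 40.5%. Vim had counts in 55.9% of the cells of cluster 7, 36.8% of cluster 6, 35.6% of cluster 8 and 16.2% of cluster 4. Gfap ran the other way between the first 2, with 67.6% in cluster 7 and 85.1% in cluster 6, and its counts were found in 64.4% of cluster 8 and 62.2% of cluster 4. These shares describe clusters built from the same cells and carry no test.

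The mural-like class held a larger cluster 5 (74 cells, led by the pericyte channel genes Abcc9 and Kcnj8) and a smaller cluster 11 (8 cells, led by the smooth muscle genes Acta2 and Myh11). Nes was counted in nearly all cells of both, 97.3% of cluster 5 and 87.5% of cluster 11. The other vascular members were counted in more cells of cluster 11: Vim in 87.5% against 14.9% of cluster 5, Des in 75.0% against 31.1% and Synm in 50.0% against 1.35%. With 8 cells, from 3 mice, cluster 11 gives wide intervals (Synm 21.5% to 78.5%), as the plot of clusters shows. In the 3 oligodendrocyte-like clusters Nes was counted in 68.3%, 71.4% and 73.6% of cells and Synm in 21.1%, 22.9% and 31.2%.

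**Figure D4:**
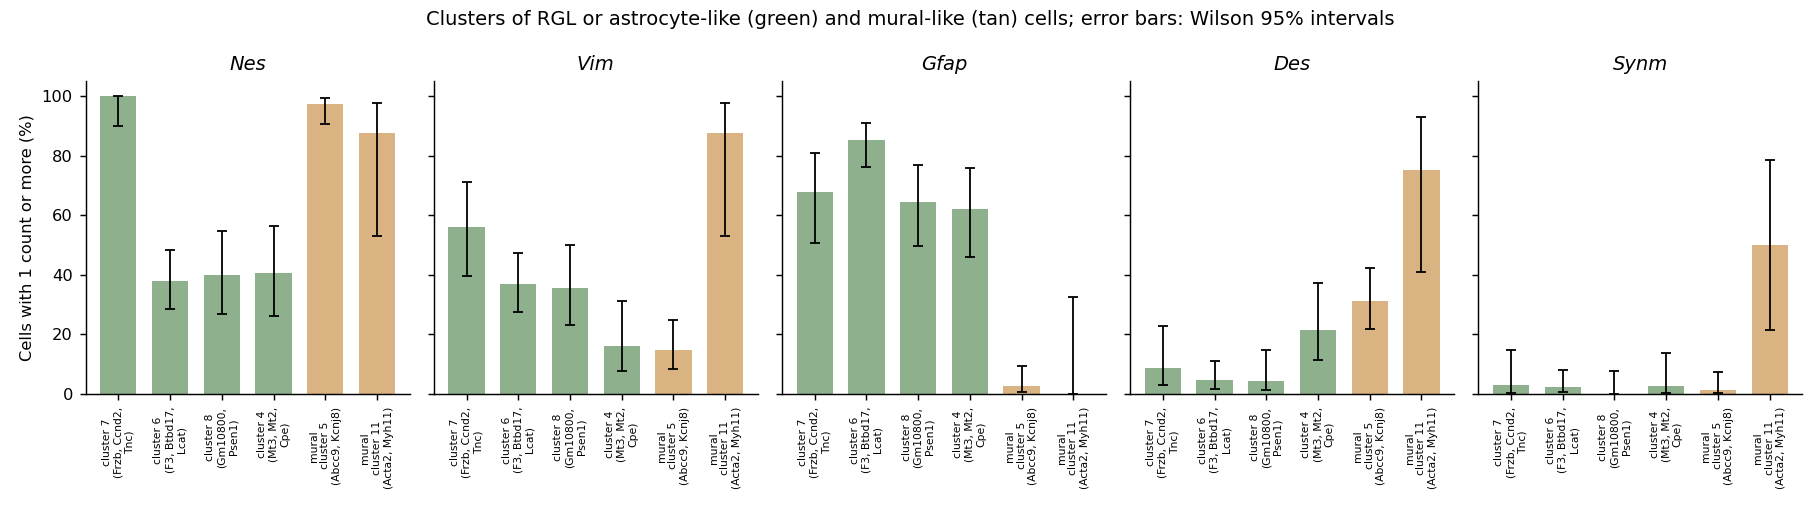
Share of cells with at least 1 count of each intermediate filament gene (%) in the 4 RGL or astrocyte-like clusters (green) and the 2 mural-like clusters (tan), each labelled with leading genes. Bars are pooled shares and error bars Wilson 95% intervals of counting error; Nes is at 100% in cluster 7 and between 37.9% and 40.5% in the other 3 RGL or astrocyte-like clusters.

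Likeness of pattern was measured by Pearson's r of log2(CPM + 1) over 39 sums of a mouse and a class, among 7774 genes averaging at least 20 CPM. Sums of 1 mouse share its library, so the values are descriptive. Nes was most like Bcam (r = 0.80), Esam (0.77), Hspb1, Ehd2 and Ackr3 (0.76 each). Vim was most like Lamb2, Ccdc141, Ablim1, Btg2 and Ahnak (0.82 to 0.83). Gfap was most like AI464131 (0.97), Slc14a1 (0.96), Otx1, Cyp4f15 and St6galnac5 (0.95 each), Des like Ifitm1, Adap2, Pik3cd and Enpep (0.85 to 0.87), and Synm like Lims2 (0.93), Pllp and Ndrg1 (0.86), Kdr (0.84) and Sdpr (0.80). Among the members themselves r was highest for Nes with Vim (0.51) and Nes with Des (0.46) and lowest for Gfap with Synm (-0.39).

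Of 21 other intermediate filament genes, 18 were analysed. Bfsp2, a filament gene known from the eye lens, reached 248 ± 74.9 CPM in oligodendrocyte-like cells and no more than 0.022 CPM on average in the other 4 classes with values. Ina, a filament of young neurons, reached 37.2 ± 25.6 CPM and the nuclear lamin gene Lmnb1 72.0 ± 69.5 CPM in neuroblast-like cells. Lmna, the lamin of stiff tissues, reached 501 ± 344 CPM in mural-like cells, against 89.96 ± 63.9 in endothelial-like, 39.6 ± 42.3 in RGL or astrocyte-like and 32.7 ± 10.5 in oligodendrocyte-like cells. The neurofilament genes Nefl, Nefm and Nefh averaged at most 2.14 CPM in each class. Krt8, Krt18 and Krt20 were not analysed here.

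Treatment was compared over 4 antagomir and 4 scrambled mice. None of the 5 genes passed in any comparison, and no gene at all did: edgeR's quasi-likelihood test called 0 of 15447 genes in all cells, 0 of 10778 in oligodendrocyte-like and 0 of 11359 in RGL or astrocyte-like cells (0.0% in each direction). At an unadjusted p under 0.05, 0.958% of genes were higher and 0.855% lower in all cells, 0.854% and 1.13% in oligodendrocyte-like, and 0.845% and 0.704% in RGL or astrocyte-like cells. In counts simulated from these means and depths, edgeR recovered 4%, 6% and 0% of 100 genes changed 2-fold, in the same order of comparisons. Of 100 genes changed 4-fold it recovered 67%, 74% and 15%. The changed genes averaged over 20 CPM, and most 2-fold changes could thus be missed. DESeq2's Wald test called 10, 13 and 8 genes, and its lowest adjusted p for a member was 0.255, for Synm in oligodendrocyte-like cells.

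In all cells Nes was at 77.6, 96.8, 99.6 and 49.3 CPM in the antagomir mice and at 176, 68.6, 100.1 and 67.5 CPM in the scrambled mice. The values overlapped, and the log2 difference was -0.39 ± 0.35 (SE; adjusted p = 1.00). In such sums fewer cells of a type and less RNA per cell cannot be told apart. Gfap was at 113, 294, 292 and 118 CPM in the antagomir mice, against 288, 80.9, 332 and 213 CPM in the scrambled mice (-0.21 ± 0.46). The log2 differences of Vim (0.22 ± 0.45), Des (0.64 ± 1.11) and Synm (-0.34 ± 0.45) were, like that of Gfap, smaller than their SE. Nes was detected in 63.7% ± 3.94 of the cells of antagomir mice and 67.8% ± 4.84 of those of scrambled mice (exact permutation p = 0.286), where 1.98% of genes differed at an unadjusted p under 0.05 and 0 after adjustment. The smallest exact permutation p that 4 against 4 mice allow is 0.0286, so adjustment could hardly call any gene.

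In RGL or astrocyte-like cells Nes was at 32.3, 46.4, 47.9 and 38.5 CPM in the antagomir mice and at 100.4, 29.6, 99.5 and 60.9 CPM in the scrambled mice. The lowest value of all was a scrambled mouse, so the groups overlapped, although the other 3 scrambled mice lay above every antagomir mouse. The log2 difference was -0.85 ± 0.53 (SE; 95% interval -2.02 to 0.31; edgeR adjusted p = 1.00). It was -1.41 within pool L5 and -0.07 within pool L6, which are entries under Project for each well, and -0.10 without cluster 7. That cluster held 15 of 109 antagomir and 19 of 94 scrambled cells of the class, and cluster 8 held 31 and 14. Vim was at 171 ± 137 CPM in antagomir and 190.0 ± 95.2 CPM in scrambled mice (-0.21 ± 0.54), and Gfap at 737 ± 234 and 995 ± 388 CPM (-0.48 ± 0.33). All 3 genes averaged higher in pool L5 than in pool L6 in this class, with Nes at 70.03 ± 35.1 CPM in L5 and 43.8 ± 13.3 in L6, Vim at 259.9 ± 104 and 101.4 ± 25.7, and Gfap at 1080 ± 350 and 652 ± 78.1 CPM (SD, n = 4 mice each, untested). Each pool held 2 mice of each treatment. The share of cells with Nes was 45.4% ± 9.69 in antagomir and 55.0% ± 16.1 in scrambled mice (exact permutation p = 0.314), in a class where 1.87% of genes differed in share before adjustment.

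In oligodendrocyte-like cells the levels of Synm did not overlap between the treatments. It was at 26.7, 29.8, 29.3 and 33.1 CPM in the antagomir mice and at 71.8, 55.8, 57.5 and 57.8 CPM in the scrambled mice. Every antagomir mouse lay below every scrambled mouse, with means of 29.7 ± 2.64 and 60.7 ± 7.42 CPM. The log2 difference was -1.06 ± 0.29 (SE; 95% interval -1.70 to -0.42). It did not pass adjustment: the unadjusted edgeR p was 0.00405, rank 18 of 10778 genes, and the adjusted p 1.00. In this comparison 1.13% of genes were lower at an unadjusted p under 0.05.

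The share of cells with Synm separated the mice in the same way, whereas the median of positive cells was not lower in antagomir mice. Counts were found in 23 of 141 oligodendrocyte-like cells of antagomir mice and 56 of 161 of scrambled mice, which is 16.2% ± 5.28 and 34.7% ± 7.98 per mouse (exact permutation p = 0.0286, the smallest that 4 against 4 allow; adjusted p = 1.00). At that unadjusted level 2.75% of 9967 genes differed in share, and adjustment of so coarse a test could hardly call any gene. Among positive cells, pooled over mice, the median was 126 counts in antagomir and 116 in scrambled mice. Scaled to depth it was 166 and 134 CPM, and neither was tested. The log2 difference of the level was -1.25 within pool L5 and -0.84 within pool L6, -1.22 on sort day 1 and -0.90 on sort day 2. Without the cells that lacked oligodendrocyte markers it was -1.05.

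By cluster, Synm was at 31.0 ± 20.9 CPM in antagomir and 31.0 ± 30.9 CPM in scrambled mice in cluster 1 (n = 4 each). In cluster 3 it was at 26.5 ± 19.2 and 79.8 ± 20.7 CPM (n = 4 each), and in cluster 2 at 1.47 and 0 CPM in 2 antagomir mice and at 63.8, 119 and 104 CPM in 3 scrambled mice. These values were not tested. Synm is also an endothelial gene here, and the summed level of 12 endothelial markers in oligodendrocyte-like cells was 0.43 to 34.0 CPM in antagomir and 15.7 to 57.9 CPM in scrambled mice, against 38775 CPM in endothelial-like cells. Nearly all of it was Kdr, while Cldn5, Flt1 and Pecam1 were at or below 0.217 CPM in every mouse. Of the 74 oligodendrocyte-like cells with at least 10 Synm counts, 9 (12.2%) held an endothelial marker at 10 counts and 0 held 3, against 23 of the 223 cells (10.3%) without Synm. Ttc23, which overlaps Synm on the other strand, averaged 0.0495 CPM in antagomir and 0 CPM in scrambled mice.

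Nes, Vim and Gfap overlapped between the treatments in oligodendrocyte-like cells. Nes was at 27.9, 80.0, 31.5 and 30.7 CPM in antagomir and at 23.1, 22.4, 30.8 and 40.4 CPM in scrambled mice (log2 difference 0.52 ± 0.44). The summed level of 12 mural markers in this class was 0.76 to 962 CPM in antagomir and 0.74 to 2.81 CPM in scrambled mice. Without the 3 cells lacking oligodendrocyte markers Nes was at 33.1 ± 7.85 and 29.2 ± 8.50 CPM, a difference of 0.16. Vim (-1.77 ± 2.16) and Gfap (0.10 ± 2.00) were near the limit of detection in this class. Des was at 0.12, 0.0477, 132.6 and 0.0813 CPM in antagomir and at 0.039, 0, 0 and 0.0243 CPM in scrambled mice. Every antagomir mouse lay above every scrambled mouse, from 1 to 4 counts per mouse in all antagomir mice but mouse 6, and Des was below the filter of edgeR in this class. Without the 3 cells lacking oligodendrocyte markers the groups overlapped. Des was then at 0 CPM in antagomir mouse 4 and at 0.039 and 0.0244 CPM in scrambled mice 1 and 7. With those 3 cells included, Des was detected in 9.06% ± 4.80 of cells of antagomir and 1.37% ± 1.63 of scrambled mice (exact permutation p = 0.0286, adjusted p = 1.00). Of its 13 positive antagomir cells 12 held 1 count, and the remaining cell is the one of mouse 6 described above.

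**Figure D5:**
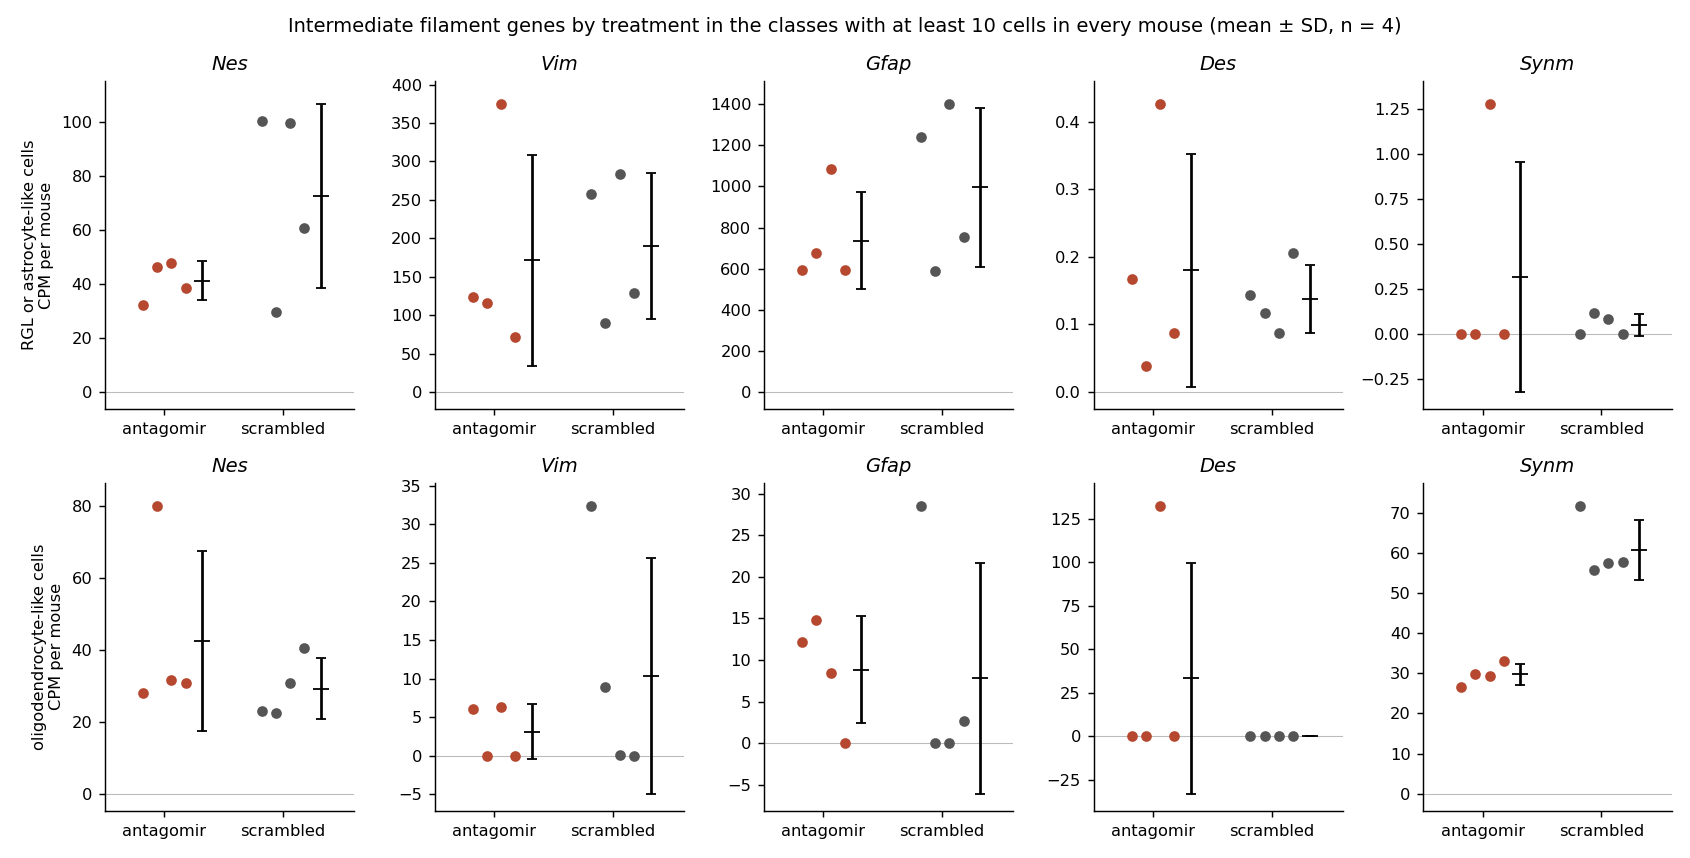
Level of each intermediate filament gene (CPM of the counts summed per mouse, linear axes that differ between panels) in antagomir (red) and scrambled (grey) mice, in RGL or astrocyte-like cells (top) and oligodendrocyte-like cells (bottom). Points are mice and crosses with bars the mean ± SD (n = 4); the groups separate visibly for Synm in oligodendrocyte-like cells (26.7 to 33.1 against 55.8 to 71.8 CPM), the high antagomir point of Des in that class comes from 1 cell and its other points lie at or below 0.12 CPM, and without 1 cell the high point of Nes is at 44.7 CPM.

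Whether the response to the antagomir differed between the 2 large classes was tested on each mouse's log2 difference of RGL or astrocyte-like minus oligodendrocyte-like cells. For Nes this was 0.08 ± 0.59 in antagomir and 1.18 ± 0.82 in scrambled mice (exact permutation p = 0.0857, adjusted p = 1.00). Vim (exact p = 0.829) and Gfap (exact p = 0.400), both near the limit of detection in oligodendrocyte-like cells, did not separate the treatments. For Synm it was -4.64 ± 0.62 in antagomir and -5.87 ± 0.23 in scrambled mice. Synm was near 0 in RGL or astrocyte-like cells of both treatments, so that these values restate its level in oligodendrocyte-like cells and are no test of a difference in response. At an unadjusted p under 0.05, 2.74% of 6685 genes differed.

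In the mural-like and endothelial-like cells, too few per mouse for a fit across genes, detection was compared. There 2.83% of genes in mural-like and 1.8% in endothelial-like cells differed in share before adjustment, and 0.0% after it. As stated for all cells, adjustment could hardly call any gene in this test. Vim was detected in 16.3% ± 3.43 of mural-like cells of antagomir and 26.9% ± 11.3 of scrambled mice (exact permutation p = 0.143), and Des in 30.8% ± 8.46 and 40.9% ± 11.9 (exact p = 0.229). In endothelial-like cells Vim was detected in 76.5% ± 18.6 of cells of antagomir and 59.9% ± 9.30 of scrambled mice (exact p = 0.171) and Synm in 38.6% ± 11.5 and 40.5% ± 23.4 (exact p = 0.857). Nes in mural-like cells was at 300 ± 39.4 CPM in antagomir and 294 ± 84.7 CPM in scrambled mice.

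Genes that act on these filaments were followed as 5 lists, and 0 genes of any list passed in edgeR in any of the 3 comparisons. In all cells, 5 of 9 tested other filament genes were higher and 4 lower (median log2 difference 0.08, against 0.00 over all genes tested), with Krt10 at 0.47 ± 0.44, Iffo1 at -0.24 ± 0.44, Bfsp2 at 0.12 ± 0.37 and Lmna at -0.06 ± 0.35 (SE). Of 15 linkers and chaperones, which tie filaments to junctions or keep them soluble, 7 were higher and 8 lower (median -0.00), with Zyx at -0.71 ± 0.53, Plec, the linker plectin, at -0.50 ± 0.82, Hspb8 at -0.38 ± 0.44 and Dtna at 0.37 ± 0.25. Of 16 kinases, phosphatases and turnover genes, 5 were higher and 11 lower (median -0.17). Among them Padi2, which citrullinates filament proteins, was at -0.87 ± 0.42, Prkca at 0.56 ± 0.53, Pak1 at -0.20 ± 0.41 and Ppp1cb at 0.18 ± 0.31.

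Of 20 transcription regulators of Nes, Vim and Gfap, 8 were higher and 12 lower in all cells (median -0.08), with Pou3f3 at 0.48 ± 0.47, Klf4 at 0.38 ± 0.56, Jun at 0.26 ± 0.78 and Mef2c at -0.25 ± 0.40. Of 11 other genes of astrocyte reactivity, a state in which Gfap and Vim typically increase, 8 were higher and 3 lower (median 0.39), with Serpina3n at 0.87 ± 0.65, S100a10 at 0.85 ± 0.47, Cebpd at -0.65 ± 0.31 and Ifitm3 at 0.55 ± 0.35. These sums mix classes. In RGL or astrocyte-like, mural-like and endothelial-like cells Ifitm3 averaged 27.6, 560 and 906 CPM and Cebpd 43.5, 294 and 49.7 CPM. In the same order Serpina3n averaged 47.8, 0 and 0 CPM and S100a10 119, 7.78 and 63.1 CPM. In RGL or astrocyte-like cells the list medians ran from -0.47 for the kinases and turnover genes to -0.12 for the linkers, against -0.01 over all genes. In that class 3 of 8 reactivity genes were higher and 5 lower (median -0.15). There the named genes ran from Padi2 at -1.69 ± 0.91 to Lmna at 1.55 ± 0.85. In oligodendrocyte-like cells the list medians ran from -0.18 for the regulators to 1.09 for 5 reactivity genes, and the kinase Rock2, chosen after its value was seen, was the lone gene of the lists below 0.05 in edgeR's unadjusted p (-3.35 ± 1.15, edgeR adjusted p = 1.00).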

How the data were processed

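RNA of single sorted cells was read by Smart-seq2, an oligo-dT method, so that mature microRNAs were not measured. Per the submitters' processing notes the tools were FastQC, STAR 2.5.2, Subread, featureCounts 1.5.1 and Seurat 2.3.1 with the mm10 build. No source used here gives the annotation release. The deposited table holds raw read counts of 31557 gene symbols in 768 wells. Treatment, mouse, sort day and pool came from the deposited well table, because the 2 labelled samples per treatment could not be tied to the 4 mice. Sort day is the name used here for the entries under its header FACS. Pool is the name used here for those under Project, a header that does not say what was pooled. Nothing in the labels describes each mouse further, and p-values measure the spread between these mice.

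Wells with 500 to 6000 detected genes were kept (36 wells fell below and 16 above). Cells were clustered with scanpy 1.11.5 (2000 variable genes without intermediate filament genes, 20 components, 15 neighbours, Leiden resolution 1) into 13 clusters, which were named from marker lists. No doublet caller was run. Counts were summed per mouse and class. Classes and co-detection were compared by exact sign-flip tests over 8 mice, and treatments by edgeR 4.0.16's quasi-likelihood test (R 4.3.3) and, for shares, by exact permutation of 4 against 4 mice. Tests were two-sided. Genes needed a mean of 20 CPM in exact tests of levels and a share of 5% in exact tests of shares. For edgeR, genes were instead filtered on their counts by its function filterByExpr, and libraries were scaled by its TMM method. The p-values were adjusted by Benjamini-Hochberg over all genes tested, in place of the members alone. A pseudocount of 1 was used on the log2 scale. Shares were recomputed after thinning cells to 200000 counts (46 of 716 cells were shallower). Scripts were tested on simulated data, and the recovery of simulated treatment changes is given with the treatment results.

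Alternatives were DESeq2 1.42.0, limma 3.58.1, other filters, pseudocounts and clusterings, pool and day terms, each mouse left out, and each pair of mice of 1 pool and day as a block. Mice of 1 pool and day deviated together with correlations of 0.0184 to 0.379, and they share no animal. Leaving out single clusters and cells without markers of their class was chosen after seeing the data. The members and the gene lists were chosen with earlier results of these data known. The genes named are the 5 members, the 5 genes most like each of them (1 of which is not reported here), and of each list the 4 with the largest absolute log2 difference in all cells among those averaging over 20 CPM; other classes are given by list medians and ranges.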

Additional observations from a re-analysis of the deposited data

Results flagged for a closer look

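In 11 of 50 groups of 4 mice, 1 mouse stood far from the other 3. Chance gives about 1 in 20 groups for evenly spread values, a rate that does not apply to the 3 of these groups in which the other mice were at 0. The lone cells are described in the report. In antagomir mice these were Des in oligodendrocyte-like cells of mouse 6 (132.6 CPM, next 0.12), Des in endothelial-like cells of mouse 4 (84.996 CPM, next 0.255) and Nes in oligodendrocyte-like cells of mouse 4 (79.96 CPM, next 31.5). Vim in mural-like cells of antagomir mouse 6 stood at 629.4 CPM (next 125.5), with 1 cell of cluster 11 at 3777 counts. Synm in mouse 6 stood at 12.16 CPM in mural-like cells (next 0.51) and at 1.279 CPM in RGL or astrocyte-like cells (the others at 0). Gfap in mural-like cells of antagomir mouse 4 stood at 0.159 CPM, which is 1 count.

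In scrambled mice Gfap stood apart in mural-like cells of mouse 3 (0.15 CPM), in endothelial-like cells of mouse 7 (0.521 CPM) and in oligodendrocyte-like cells of mouse 1 (28.54 CPM, next 2.67). Synm in oligodendrocyte-like cells of scrambled mouse 1 was at 71.78 CPM (next 57.8).

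The log2 difference of Synm between RGL or astrocyte-like and oligodendrocyte-like cells was 1.23 higher in antagomir than in scrambled mice (adjusted p = 1.00). Since Synm was near 0 in RGL or astrocyte-like cells of both treatments, this restates its level in oligodendrocyte-like cells and shows no difference in response.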

How the results depend on the processing

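Class differences kept their direction in 452 of 460 values under the alternatives. The exceptions were Nes in RGL or astrocyte-like minus oligodendrocyte-like cells (-0.55 at Leiden resolution 0.6, -0.74 by the mean over cells of log2 values, -0.56 without cluster 7) and Vim in RGL or astrocyte-like minus mural-like cells (-0.22 at resolution 0.6, -0.062 with a pseudocount of 10, -0.23 without cluster 7, -0.49 within pool L5, -0.48 to 0.21 with each mouse left out). With each mouse left out, exact p cannot go below 0.0156, and 0 to 1 pairs passed for Nes, 1 for Vim, Gfap and Synm and 0 for Des. Among wells with 1000 to 6000 genes, where 7 mice had at least 3 endothelial-like cells, all 6 calls that involve this class were lost (adjusted p = 0.0603 against RGL or astrocyte-like cells for Nes, Vim, Gfap and Synm, 0.0574 against oligodendrocyte-like cells for Nes and Vim), so that Vim passed in 1 pair; Nes in RGL or astrocyte-like minus oligodendrocyte-like cells then passed (0.77, adjusted p = 0.0239). By the mean over cells Nes in endothelial-like minus oligodendrocyte-like cells was lost and Vim in mural-like minus oligodendrocyte-like cells gained (adjusted p = 0.0230). At 10 counts or more, shares were 56.2% for Nes and 3.33% for Des in all cells, 60.3% for Nes in oligodendrocyte-like cells and 0% for Des in RGL or astrocyte-like cells.

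No member's treatment difference passed under any alternative run. DESeq2 called 10, 13 and 8 genes. Signs turned for differences of which none had passed. In all cells these were Gfap 0.11 with limma, Des -1.24 with the replicate block, Nes 0.081, Gfap 0.45 and Des -1.40 within pool L6, Gfap 0.081 and Des -1.05 within day 1, and Des -0.77 in wells with 1000 to 6000 genes. In oligodendrocyte-like cells they were Vim 1.14 with a day term, Gfap -0.53 within pool L5 and -0.19 within day 1, and Nes -0.21 within day 2. For Vim in RGL or astrocyte-like cells they were 0.022 within day 2, 0.068 at resolution 0.6 and 0.059 without cluster 7. With each mouse left out, all cells gave -1.35 to 1.04 for Des, -0.51 to 0.032 for Gfap and -0.014 to 0.52 for Vim; oligodendrocyte-like cells gave -0.32 to 3.31 for Gfap and -2.36 to 0.11 for Vim; RGL or astrocyte-like cells gave -0.91 to 0.072 for Vim. The block changed no call, and the mice of a pair share pool and day alone.

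Differences in share (percentage points) turned for Vim in all cells (-0.035 at 10 counts, -0.78 thinned), Nes in mural-like (0.16 thinned) and Nes in endothelial-like cells (-3.77 thinned). With each mouse left out they ran in all cells from -1.94 to 3.43 for Vim, -2.62 to 4.12 for Gfap and -1.60 to 2.17 for Des. They ran from -2.09 to 3.55 for Des in RGL or astrocyte-like, -3.10 to 0.80 for Synm in mural-like, -4.64 to 7.54 for Nes and -10.3 to 6.81 for Synm in endothelial-like, and -2.76 to 5.01 for Nes in oligodendrocyte-like cells. Co-detection of Gfap with Nes was 0.60 without cluster 7, 8.22 without cluster 8 and -6.99 to 0.83 with each mouse left out; for Synm it was -1.57 to 2.91. The response difference of Vim ran from -0.35 to 1.32. The causes were not tested. The 19 to 43 RGL or astrocyte-like cells per mouse limit the precision in that class.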

Other observations

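Wells outside the limits on detected genes entered no comparison. Of the 16 wells with over 6000 genes, Nes, Vim and Synm had counts in 16 each, Gfap in 15 and Des in 10. Of the 36 wells with under 500 genes, Des had counts in 10, Nes in 3, Gfap in 2, Vim in 1 and Synm in 0.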
